A study of Mus musculus with 8 samples.

Results

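Cluster 3 is 1 of 7 populations of bone marrow stromal cells that were sorted by surface antigens and sequenced in bulk, with 1 library per population. It was compared here with the other 6 sorted libraries, clusters 1, 2, 4, 5, 6 and 7. The genes described were those with 50 or more counts in the cluster 3 library, which were 12785 of the 49315 genes in the deposited tables. The level of a gene was its RPKM (counts scaled to exon length in kilobases and to the total of counted reads), and each gene was described by log2(RPKM + 1) in cluster 3 minus the median, and minus the highest, of the other 6 libraries. A gene that was missing from cluster 3 could not enter under this count minimum, so the low side of the comparison holds only genes that were still counted there.

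Per the labels all libraries came from wild type C57BL/6J mice at 6 weeks of age, whereas the study's methods name the substrain C57BL/6JJcl. The libraries are assigned to clusters by their titles alone, since the protocol in the labels describes RNA from crushed marrow and that of the study's methods RNA from sorted cells. All sorted cells were negative for CD31, CD45 and Ter119. The gate for cluster 3 was Ly-6C positive, CD24 positive, CD39 negative and CD54 negative. The gates of the others were Sca-1 and CD39 positive and CD24 negative for cluster 1, negative for Ly-6C, CD39 and CD24 for cluster 2, CD54 positive and negative for Ly-6C and CD24 for cluster 4, CD54 positive and negative for CD121b, CD24 and Ly-6C for cluster 5, CD24 positive and negative for Sca-1 and CD39 for cluster 6, and Sca-1 positive and negative for CD54, CD24 and Ly-6C for cluster 7. With 1 library per gate there was no replicate check, no test was made, and any interval given below covers counting error only. PCR copies of a read were not told apart from separate molecules, so the intervals may be too narrow even for that error. A sorted pool averages over its cells, so fewer cells of a type and less RNA per cell cannot be told apart in these libraries.

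Marrow stromal cells form bone, cartilage, fat and the supporting niche of blood formation. Csf2 encodes GM-CSF, a secreted cytokine that acts on granulocytes, macrophages and dendritic cells through a receptor of an alpha chain and the common beta chain. Bglap encodes osteocalcin, a protein that osteoblasts secrete into bone matrix, Cfd encodes adipsin (complement factor D), a serine protease of the alternative complement pathway that adipocytes secrete, and Rgcc encodes a regulator of the cell cycle.

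The depth of the cluster 3 library was 27102715 counts, within the range of the others, which ran from 12833648 in cluster 5 to 33238133 in cluster 7. Lars2, mmu-mir-689-2 and ENSMUSG00000098178, which lies at a ribosomal RNA locus, were left out of every total. Together they took 1.58% of the counts in cluster 3, against 34.8% in cluster 5, 10.4% in cluster 2 and at most 1.91% in the other 4. Over the 12785 genes the profile of cluster 3 was closest to cluster 1, with a Pearson r of 0.955 on the log2(RPKM + 1) scale, and farthest from cluster 6, with r = 0.898. These coefficients are across genes, which are not independent replicates. Of those genes, 753 stood at least 2-fold apart between cluster 3 and cluster 1, against 1744 between cluster 3 and cluster 6.

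In cluster 3, 367 genes (2.87% of those tested) stood at least 2-fold above the median of the other 6 libraries and 351 (2.75%) at least 2-fold below it. Only 68 genes (0.532%) were at least 2-fold above the highest of the other 6, and 44 (0.344%) at least 2-fold below the lowest. Counted at any size of difference, 1225 genes (9.58%) were highest of the 7 in cluster 3 and 1486 (11.6%) were lowest, with 1460 and 1422 under TMM factors and 1614 and 1406 under DESeq2 factors. The median difference to the median library over all 12785 genes was -0.016. For the 68 genes at the top, the next library was cluster 1 in 35 and cluster 7 in 18, and 55 of them had at least 500 counts. The same rule applied to the other libraries gave 27, 153, 24, 128, 27 and 70 genes above all others for clusters 1, 2, 4, 5, 6 and 7. The split of genes past 2-fold from the median depended on the scaling, with 435 above and 268 below once the 3 loci were kept in the totals.

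The genes nearest to each threshold show that the sets have no sharp edge. Sncg was the last gene counted above the highest library, with a log2 difference of 1.01, and Cdh13 was the first left out, at 0.997. On the low side St3gal4 was counted at -1.0 and Rgs16 was left out at -0.982. Against the median, ENSMUSG00000030768 was counted at 1.00 and Soat2 left out at 0.999.

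The genes of the sorting antigens were examined first, since they check the label and are not a result. Ly6c1, which encodes a Ly-6C antigen, was measured at RPKM 215, 36.7, 416, 123, 41.6, 6.53 and 53.9 in clusters 1 to 7 and was highest in cluster 3, 1.94 times cluster 1 (95% interval 1.89 to 1.99). Ly6c2, its near-identical neighbour, was 37.4 in cluster 3 and 42.0 to 116 elsewhere (cluster 1 was slightly lower under TMM and DESeq2 factors), and how reads shared by the pair were counted is not given in the sources used here. Entpd1, the gene of CD39, and Icam1, the gene of CD54, were both lowest of the 7 in cluster 3, at 2.30 and 11.6, as the gate asks. Cd24a went against the gate, with levels of 56.7, 141, 50.7, 53.6, 120, 139 and 72.4 in clusters 1 to 7, so that the population sorted as CD24 positive was not among those with a high transcript level. It was lowest with totals as scaling, but TMM and DESeq2 factors put cluster 1 slightly lower, at 50.9 against 51.8 and 50.2 against 52.2. Ly6a, which encodes Sca-1, was highest in cluster 3 at 946, against 601 in cluster 1. Surface protein was not measured in these files. Pdgfra was detected at 18.3. Of the genes of the antigens used for exclusion, Ptprc (CD45) was 1.72, the lowest of the 7, and Pecam1 (CD31) was 2.14, but abundant blood cell transcripts were present, with S100a9 at 4911.8 and Hba-a1 at 3102.6.

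Csf2 was the gene that stood farthest above every other library on the log2(RPKM + 1) scale. It lies on chr11:54247271-54249667 (GRCm38, minus strand) and had 870 counts in cluster 3. Its RPKM was 3.37, 2.26, 40.8, 2.64, 1.20, 1.68 and 1.40 in clusters 1 to 7. Cluster 3 alone was high, and the other 6 lay between 1.20 and 3.37. The ratio to cluster 1, the next library, was 12.1 (9.38 to 15.9), and the log2 difference was 3.82 to the median and 3.26 to the highest. Csf2 overlaps the predicted gene Gm12223, and whether the counting used strand is not given in the sources used here. Among genes with a regular symbol, the 5 whose log2(RPKM + 1) followed Csf2 most closely over the 7 libraries were Rasgef1a (r = 0.995), Colec10 (0.979), Cyp21a1 (0.978), Klrg2 (0.977) and Cldn3 (0.976). The points of these correlations are the 7 libraries, among which cluster 3 stands apart for each of these genes.

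Counts of list members past 2-fold, here and below, compare with 2.87% above and 2.75% below the median over all genes. Of the 12 genes listed for the receptor and its signalling, all measured with at least 50 counts, Csf2 was the only member past 2-fold in either direction, and the median difference of the list was -0.21 against -0.016 over all genes. Csf2ra, the alpha chain of the receptor, was 13.2 in cluster 3 and 14.4 to 40.8 elsewhere. Csf2rb, the common beta chain, was 6.02 in cluster 3 and 6.46 to 14.6 elsewhere, and for neither was cluster 3 lowest under TMM factors. Both chains are expressed by myeloid cells, whose summed neutrophil (11619.4) and macrophage (672) genes were lowest of the 7 in cluster 3, and their part in these values was not tested. The kinase gene Jak2 was measured at 11.6 in cluster 3 and at 12.2 to 17.8 in the others, but was in the middle of the 7 under TMM and DESeq2 factors, and Stat5a and Stat5b differed from the median by -0.27 and -0.05 on the log2 scale.

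Among 20 secreted cytokines, 17 had enough counts, 3 were past 2-fold above the median and 3 below it. Csf1, the macrophage growth factor M-CSF, was measured at RPKM 36.5, 6.32, 75.9, 35.6, 19.2, 6.70 and 25.2 in clusters 1 to 7. Cluster 3 was highest, at 2.08 times cluster 1 (2.01 to 2.15), and clusters 2 and 6 were lowest. Tnfrsf11b, the decoy receptor osteoprotegerin that binds RANKL, was 74.5 in cluster 3 and 97.0 in cluster 6, with 14.1 to 46.9 in the remaining libraries. Its ligand gene Tnfsf11 (RANKL), which drives osteoclast formation, was lowest in cluster 3 at 1.29, against 2.01 to 15.3 in the others. Il1b and Osm, cytokines made largely by myeloid cells, were at least 2-fold below every other library with totals as scaling. Their levels were 20.6 and 7.0, against lowest values elsewhere of 47.9 and 15.6. Under TMM and DESeq2 factors Osm fell short of 2-fold on the log2(RPKM + 1) scale. The summed neutrophil and macrophage genes given below were also lowest in cluster 3, and their part in these values was not tested. Csf3 and Il6 did not pass 2-fold, at 5.41 and 42.6.

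Cfd came next in that ranking, and it was examined with the other complement genes. The gene, on chr10:79890853-79892656 (plus strand, 783 counts), was measured at RPKM 0.867, 3.24, 31.8, 1.51, 3.24, 0.208 and 3.30 in clusters 1 to 7. None of the other 6 libraries exceeded 3.30 RPKM, and the ratio to cluster 7 was 9.63 (7.82 to 12.0). Cd55, the decay-accelerating factor that limits complement on the cell's own surface, was measured at 29.9, 5.37, 113, 6.54, 4.21, 2.86 and 16.9, which put cluster 3 at 3.79 times cluster 1 (3.66 to 3.94) and 4.05 above the median on the log2 scale. Cd59a, another surface inhibitor, was 16.7 in cluster 3 and 15.3 in cluster 6, an order that turned under TMM and DESeq2 factors (17.1 against 19.8 and 17.2 against 19.7). Of the 14 complement genes with enough counts, these first 2 were the only ones past 2-fold above the median, and 5 were past 2-fold below it. The low ones were the classical pathway proteases C1s1 (32.6) and C2 (0.726), Cfb (2.28), the factor that Cfd cleaves, properdin (Cfp, 6.59) and the receptor gene C5ar1 (4.83). Cfp and C5ar1 are expressed by myeloid cells, and the part of the neutrophil and macrophage genes, whose sums were lowest in cluster 3, was not tested. The median of the list was -0.52. Of 15 adipocyte genes with enough counts, 2 (Cfd and Car3) were past 2-fold above the median and 4 below it. Plin1 and Plin4, which coat lipid droplets, and the leptin gene Lep were all under 50 counts, and Lpl, lipoprotein lipase, was measured at 1.82 against 4.02 to 31.8 in 5 of the others and 1.01 in cluster 6.

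The remaining genes far above all other libraries were of several roles. Htra4, a secreted serine protease, was measured at RPKM 78.1, 14.5, 474, 29.4, 28.3, 23.9 and 50.8 in clusters 1 to 7, with 30405 counts in cluster 3. Its ratio to cluster 1 was 6.07 (5.89 to 6.27), and the predicted gene Gm16933 that overlaps it was also among the 68. Prg4, which encodes the lubricant lubricin of joint surfaces, was measured at 529, 252, 2522.5, 1091.1, 200, 362 and 321. Cluster 3 was 2.31 times cluster 4 (2.30 to 2.33), and its 287988 counts were the most for any of the 68 genes. Sfrp4, a secreted Wnt antagonist, was measured at 400, 102, 1329.2, 344, 146, 17.4 and 350, and its ratio to cluster 1 was 3.32 (3.26 to 3.38). The Wnt ligand gene Wnt2 was 23.5 in cluster 3, 8.09 in cluster 1 and at most 2.50 in the rest. Foxd1, a forkhead transcription factor, was 13.9 against 3.81 in cluster 7, the next. Npy, the neuropeptide Y gene, was 102 in cluster 3 and between 7.81 and 28.0 in the others.

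Chemokine genes were divided. Of 18 with enough counts, 5 were past 2-fold above the median (all genes, 2.87%) and 6 below it (2.75%). Ccl2, which attracts monocytes, was measured at RPKM 405, 53.6, 1284.0, 240, 131, 5.74 and 196 in clusters 1 to 7, and its ratio to cluster 1 was 3.17 (3.10 to 3.24). Ccl7 (1109.4), Cxcl1 (1123.4) and Cxcl3 (6.16) were also highest in cluster 3, and of these Cxcl3 stood at least 2-fold above the next library, 1.75 in cluster 7. Cxcl13 was past 2-fold above the median at 1.76, but higher in cluster 4 at 2.51. The low ones included Cxcl12, the chemokine that holds blood stem cells in the niche, at 11.9 against 141 in cluster 4 and 5.12 in cluster 6, and Cxcl14, at 63.1, 56.1, 10.1, 176, 123, 35.3 and 118. Cxcl14 was therefore lowest in cluster 3 by a factor of 3.49 (3.16 to 3.86). The genes of 2 atypical receptors that take up chemokines without signalling as the others do were among the 68. Ackr2, listed under its older symbol Ccbp2, was measured at 7.03, 3.01, 43.2, 2.81, 0.421, 5.30 and 8.02, a ratio of 5.39 to cluster 7 (4.996 to 5.82). Ackr3, listed as Cxcr7, which takes up CXCL12, was 220 in cluster 3 and 91.5 in cluster 1.

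Serine protease inhibitors and receptors were also among the rest. Serpinb7 was measured at RPKM 1.36, 0.405, 13.1, 0.0952, 0.489, 0.0164 and 1.603 in clusters 1 to 7, and Serpinb2, the plasminogen activator inhibitor PAI-2, was 10.4 in cluster 3 against 2.60 in cluster 5. The pair lies on chromosome 1 with a gap of 58734 bases. In all, 6 pairs of the 68 genes lay within 100 kb of each other and held 12 genes, with the overlapping Htra4 and Gm16933 as 1 of the pairs. Over all 12785 tested genes, 11672 lay in such pairs. That larger set is denser along the chromosomes, so these numbers do not tell whether the 68 are clustered. Procr, the endothelial protein C receptor, was 164 in cluster 3 and 56.4 in cluster 4. Tspan15, a tetraspanin, was 67.1 in cluster 3 and 20.9 in cluster 1. Il1rl1, the receptor of IL-33, was 15.7 against 5.96 in cluster 7. Colec10, a collectin, had 476 counts in cluster 3 against 19 for cluster 1, and the ratio of levels was 22.3 (14.1 to 37.4), but its level in cluster 3 was only 3.89 RPKM.

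**Figure D1:**
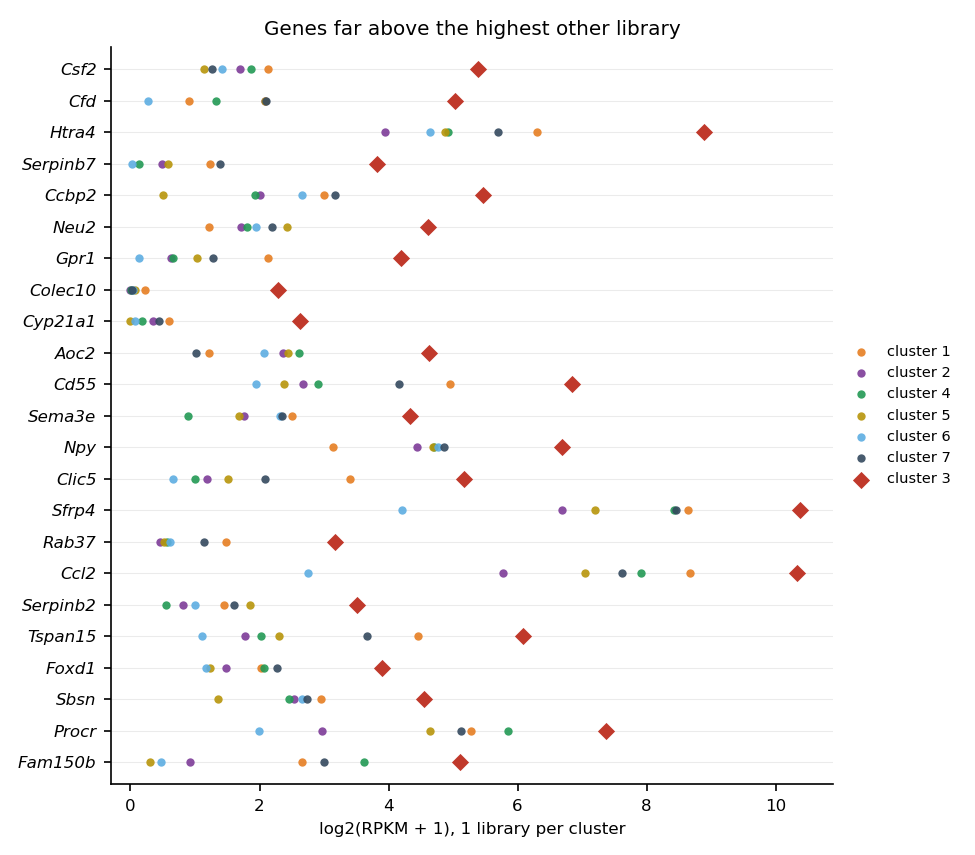
Levels of genes that stood farthest above all other libraries, with 1 row per gene, 1 point per library and log2(RPKM + 1) on the horizontal axis. In each row shown the diamond of cluster 3 lies to the right of all circles, as for Csf2 at 40.8 RPKM with no other library above 3.37.

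The promoters of 3 of these genes are shown because the letters TGANTCA, the core of the AP-1 motif, were found in them. The motifs were chosen after the gene values were seen. The windows run from 250 bases before to 50 after the start in RefSeq (GRCm38.p6), 5′ to 3′ on the gene's strand, and capitals mark TGANTCA or TATAAA on either strand. They are at chr1:107511173-107511472 (plus) for Serpinb2, chr7:30751221-30751520 (plus) for Sbsn and chr10:62231169-62231468 (minus) for Tspan15.
Serpinb2: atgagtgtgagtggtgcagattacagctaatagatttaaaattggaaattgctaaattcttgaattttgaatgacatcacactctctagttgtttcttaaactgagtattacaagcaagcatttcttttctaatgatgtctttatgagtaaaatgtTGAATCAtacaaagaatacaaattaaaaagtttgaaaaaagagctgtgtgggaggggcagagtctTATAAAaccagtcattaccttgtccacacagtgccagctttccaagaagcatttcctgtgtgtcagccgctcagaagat
Sbsn: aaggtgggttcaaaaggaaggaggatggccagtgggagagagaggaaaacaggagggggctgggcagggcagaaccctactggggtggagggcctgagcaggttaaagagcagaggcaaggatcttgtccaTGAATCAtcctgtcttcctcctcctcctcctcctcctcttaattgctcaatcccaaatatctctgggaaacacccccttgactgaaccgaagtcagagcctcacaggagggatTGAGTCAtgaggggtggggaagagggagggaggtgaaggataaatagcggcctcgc
Tspan15: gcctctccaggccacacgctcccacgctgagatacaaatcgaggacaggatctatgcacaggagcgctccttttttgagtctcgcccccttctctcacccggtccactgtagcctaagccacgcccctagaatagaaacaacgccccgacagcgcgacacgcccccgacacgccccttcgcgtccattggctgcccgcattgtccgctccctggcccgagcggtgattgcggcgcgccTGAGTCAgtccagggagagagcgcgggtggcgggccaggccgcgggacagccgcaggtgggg
Serpinb2 held TGAATCA at -94 and TATAAA at -29 from the start, Sbsn held TGAATCA at -119 and TGAGTCA at -6, and Tspan15 held TGAGTCA at -12. The window of Csf2, searched in the same way and not shown, held neither TGANTCA nor TATAAA. Of the 57 promoters of 44 matched genes among the 68, 10 (17.5%) held TGANTCA, against 7.81% of all 32851 promoters and 5.32% of those of the tested genes. Promoters of the same gene are not independent, and the 10 belonged to 7 genes, Dmkn, Neu2, Procr, Sbsn, Serpinb2, Serpinb7 and Tspan15. Counted per gene, the share was 15.9% of the 44, 8.97% of all 27025 genes and 6.40% of the 8669 tested genes with a promoter. The starts used for Serpinb7 and Neu2 lay 23034 and 84661 bases from the gene starts in the deposited tables. Of the 40 promoters of genes below the lowest library, 2.5% held it. TATAAA was in 15.8% of the 57, 17.5% of the 40, 13.6% of all and 7.31% of the tested genes' promoters. A match is a description of the letters and says nothing of what binds there.

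Some enzymes that supply sugars for glycosaminoglycans were among the 68, and they were picked after their values were seen. Ugdh, which makes UDP-glucuronic acid, a building block of hyaluronan, was measured at RPKM 144, 110, 336, 138, 76.8, 96.4 and 94.6 in clusters 1 to 7. Its ratio to cluster 1 was 2.33 (2.30 to 2.37). Ugp2, which makes its precursor UDP-glucose, was 141 in cluster 3 and 63.2 in cluster 1, and Gnpnat1, of the UDP-N-acetylglucosamine route, was 39.6 and 16.5. Others of these routes were not 2-fold above the highest library, among them Uap1 (401.8, difference to the highest 0.86), Gfpt2 (0.59), Pgm3 (0.49), Uxs1 (-0.58) and Gfpt1 (-1.14). Of the hyaluronan synthases, Has1 was also highest in cluster 3, at 1647.4 against 906 in cluster 4, a ratio of 1.82. Has2 was 11.9 in cluster 3 and 14.9 in cluster 1, and Has3 had 3 counts. Cd44, a hyaluronan receptor, was 116 in cluster 3 and 75.2 in cluster 1.

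Osteocalcin was abundant in cluster 3 but not in it alone. Bglap, on chr3:88383501-88384464 (minus strand, 234831 counts), was measured at RPKM 259, 3543.4, 14245.3, 192, 7821.2, 11189.5 and 276 in clusters 1 to 7. Clusters 2, 3, 5 and 6 all had at least 3543.4, and clusters 1, 4 and 7 at most 276. The ratio of cluster 3 to cluster 6 was 1.27 (1.27 to 1.28), but only 1.004 under TMM and 1.02 under DESeq2 factors, so that the order of these libraries depends on the scaling. The log2 difference to the median was 3.84, and as the median falls in the gap between 276 and 3543.4 it became 2.01 without cluster 1, 4 or 7 and 5.68 without cluster 2, 5 or 6. Bglap2 (10108.2) was also highest in cluster 3, Bglap3 (17.95) was so with totals but not under TMM or DESeq2 factors, and the 3 genes are near-identical neighbours whose shared reads may have been split between them. The promoter of Bglap is shown for its RUNX motif, since RUNX2 is the regulator of osteoblast formation. It lies at chr3:88384417-88384716 (GRCm38.p6, minus strand), and capitals mark ACCACA, the RUNX core searched on both strands, and TATAAA.
Bglap: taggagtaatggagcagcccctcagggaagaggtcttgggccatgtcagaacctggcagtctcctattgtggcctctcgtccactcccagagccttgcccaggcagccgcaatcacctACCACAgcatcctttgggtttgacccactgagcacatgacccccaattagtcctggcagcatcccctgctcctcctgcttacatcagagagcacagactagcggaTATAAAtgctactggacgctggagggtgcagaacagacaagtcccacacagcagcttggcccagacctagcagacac
ACCACA stood at -132 and TATAAA at -27. The RUNX letters were in 16.8% of all promoters of this length, in 12.3% of those of the tested genes and in 14.0% of those of the genes above the highest library.

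The other bone genes followed several patterns in cluster 3. Of the 25 osteoblast lineage genes listed, 22 had enough counts, 9 were past 2-fold above the median of the other libraries and none below it, with a list median of 0.73. None was 2-fold above the highest library. Dmp1, a matrix protein of late osteoblasts and osteocytes, was measured at RPKM 3.58, 40.0, 206, 10.05, 58.6, 421 and 10.7 in clusters 1 to 7. Ifitm5, a membrane protein of mineralizing osteoblasts, was measured at 3.03, 45.4, 157, 4.38, 77.4, 170 and 5.6. For both genes cluster 6 was highest, cluster 3 came next and clusters 1, 4 and 7 lowest. As for Bglap, the median fell in the gap above clusters 1, 4 and 7, so the size of these differences depends on the libraries compared. How many of the 9 share this was not counted. Dlx3, a homeobox factor, was highest in cluster 3 at 19.9 against 13.0 in cluster 6, whereas Col22a1, at 48.6 against 43.4, was higher in cluster 6 under TMM and DESeq2 factors. The early regulator Runx2 was 4.44 in cluster 3, with only cluster 1 lower at 2.09, and Sp7 (osterix) was 21.2, between 15.4 in cluster 5 and 24.2 in cluster 2. Ibsp, bone sialoprotein, was 453 in cluster 3 against 3237.8 in cluster 6, and Panx3, a pannexin of hypertrophic cartilage and osteoblasts, was lowest in cluster 3 at 1.30 against 153 in cluster 6. Car3, carbonic anhydrase 3, followed the split of Bglap, at 6.61, 76.0, 248, 9.15, 176, 276 and 6.86 in clusters 1 to 7.

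Rgcc, listed in the deposited tables as 1190002H23Rik, had 23057 counts in cluster 3 and was measured at RPKM 339, 479, 942, 579, 438, 470 and 511 in clusters 1 to 7. Cluster 3 was highest, at 1.63 times cluster 4 (1.6 to 1.66). The difference to the median was 0.99 on the log2 scale, just under 2-fold. Csf2, Cfd, Bglap and Rgcc, which were taken here as markers of cluster 3 with earlier results of these data known, were all highest there, but only Csf2 and Cfd were 2-fold above every other library. The study's single-cell data had Rgcc upregulated in cluster 7, whose sorted library was at 511 here.

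**Figure D2:**
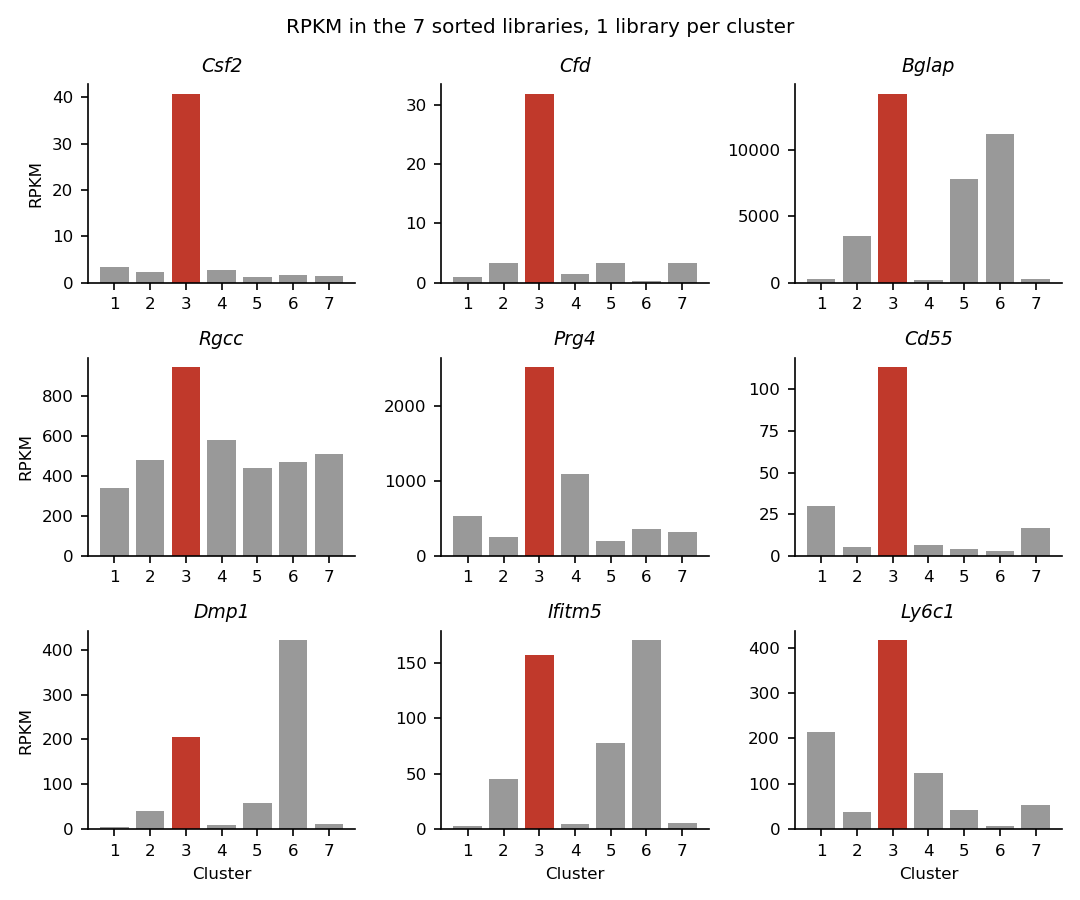
RPKM of 9 genes in the 7 libraries, with 1 panel per gene, 1 bar per library and axes that start at 0. Csf2 and Cfd are high in cluster 3 alone, whereas Bglap, Dmp1 and Ifitm5 are also high in cluster 6 (11189.5, 421 and 170 RPKM).

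Of 20 genes listed for fibroblast progenitors, all with enough counts, 11 were past 2-fold above the median and 3 below it, and the list median was 1.52 against -0.016 over all genes. Their summed RPKM was 13173.2 in cluster 3, under 15188.3 in cluster 1, 17247.9 in cluster 4 and 16378.7 in cluster 7, and abundant genes such as Gsn and Dcn make up most of it. By this sum cluster 3 ranked 4 of the 7 libraries with totals and under TMM factors, but 3 under DESeq2 factors. Cd248 (endosialin), a stromal surface glycoprotein, was measured at RPKM 112, 5.74, 158, 69.2, 16.7, 1.601 and 44.6 in clusters 1 to 7. Cluster 3 was highest, cluster 1 next and clusters 2 and 6 lowest, and the same was true of Fbn1 (74.0 in cluster 3, 67.3 in cluster 1). Dpp4, a surface peptidase, was 21.2 in cluster 3 and 7.84 in cluster 1, at least 2-fold above every other library like Ackr3 and Procr of the same list. Cd34 and Mfap5 were also past 2-fold above the median, but higher in cluster 1, as was Clec3b (190 against 209) with totals but not under TMM or DESeq2 factors. Pi16 was not, at 10.005 against 30.6 in cluster 1. The 3 low members were Sfrp2, a secreted Wnt modulator, at 127, 51.7, 15.2, 302, 157, 1.43 and 179, Ccl11 (eotaxin) at 5.99, and Smoc2, a calcium-binding matrix protein, at 73.7 against 78.0 to 398 elsewhere, which under TMM and DESeq2 factors was no longer the lowest of the 7. Of 20 genes listed for LepR stromal cells and niche factors, which include Cxcl12, 4 were past 2-fold below the median and 1 (Csf1) above it, with a list median of -0.36.

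Cartilage genes were divided in cluster 3. Of 14 chondrocyte genes with enough counts, 7 were past 2-fold below the median, 4 of them at least 2-fold below every other library, and 1 (Prg4) was above it, with a list median of -1.10. Their summed RPKM was 4801.7 in cluster 3, above that of clusters 1, 5 and 7 (1325.7, 1921.6 and 2934.9) and below that of the other three, and Prg4 alone made up 2522.5 of it. Not all of the cartilage genes named next belong to that list. Matn3, a cartilage matrix protein, was measured at RPKM 10.2, 691, 1.59, 89.9, 14.0, 687 and 21.2 in clusters 1 to 7. Cluster 3 was lowest, with cluster 1 at 6.38 times its level (5.28 to 7.76). Col9a1, Col9a2 and Col9a3, the chains of type IX collagen, were lowest in cluster 3 at 2.71, 4.32 and 6.15, with the next library at 4.49, 3.01 and 4.04 times that. Chondromodulin, listed as Lect1, was 4.56 in cluster 3 and 14.6 to 1180.1 elsewhere. Col2a1, the main cartilage collagen, was measured at 195, 9608.1, 136, 3076.9, 233, 10691.1 and 185. It was lowest in cluster 3 too, but cluster 7 was at only 1.36 times its level, and its difference to the median fell short of 2-fold in 4 of 16 alternative settings. Col11a1 (95.02) and Sox9 (50.1) did not pass 2-fold.

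Growth factor genes were also among those below every other library. Gdf10, a member of the TGF-beta family, was measured at RPKM 66.7, 35.7, 5.73, 141, 33.7, 35.1 and 120 in clusters 1 to 7. On the log2(RPKM + 1) scale it was the gene farthest below all others, with cluster 5 at 5.88 times cluster 3 (5.18 to 6.67). Of 24 genes of the BMP and TGF-beta list, 3 were past 2-fold below the median and 4 above it, the latter led by Inhba, the activin A subunit, at 124 against 62.8 in cluster 4. Of 11 genes of the IGF axis, 5 were past 2-fold below the median, and the list median was -0.93. Igf2 was measured at 6.15, 13.6, 0.996, 20.3, 27.6, 1.29 and 8.77, lowest in cluster 3, and Igf1 was 10.9 against 0.773 in cluster 6 and 14.4 to 38.7 in the rest. Igfbp6, which binds IGF2, went the other way and was highest in cluster 3 at 2115.9. H19 (1.90), a neighbour of Igf2, Mest (3.14) and Cdkn1c (10.3), an inhibitor of cyclin-dependent kinases, were all at least 2-fold below every other library, as was Peg3 (2.58), which was picked after its values were seen. Peg3 fell short of 2-fold on the log2(RPKM + 1) scale under TMM and DESeq2 factors. Reads of Mest and H19 can also belong to the transcripts that overlap them.

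Matrix genes at the low end included some for which cluster 6 was lower still. Mfap4, an elastic fibre protein, had the largest difference to the median, -4.60, with 76.7, 58.8, 3.08, 397, 202, 1.12 and 126 RPKM in clusters 1 to 7. Eln, elastin, was 5.09 in cluster 3 and 1.43 in cluster 6, with 11.7 to 107 elsewhere. Col12a1 (6.75) and Col16a1 (21.1), collagens that associate with fibrils, were lowest in cluster 3 by factors of 2.72 and 2.98. Of 18 matrix proteases and inhibitors, 5 were past 2-fold below the median and none above it. These include Mmp8 (16.7) and Mmp9 (8.73), which neutrophils express and which were lowest of the 7 like the neutrophil sum, whose part was not tested. Mmp13, a collagenase, was 64.8 in cluster 3 and 125 to 803 elsewhere.

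**Figure D3:**
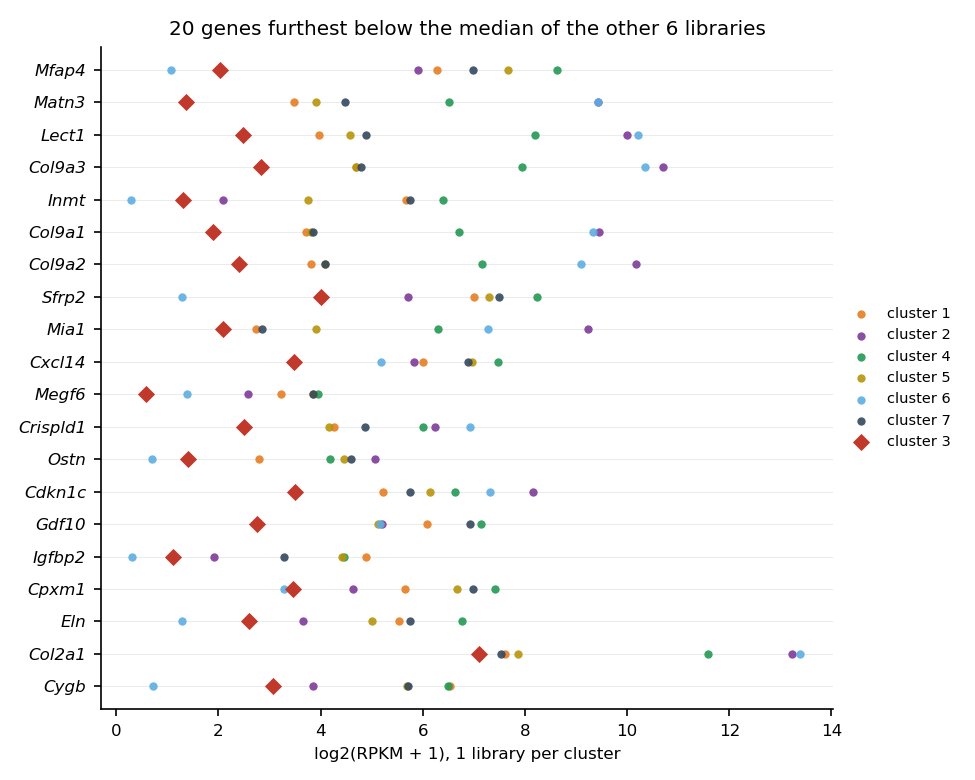
Levels of the 20 genes farthest below the median of the other libraries, with 1 row per gene, 1 point per library and log2(RPKM + 1) on the horizontal axis. The diamond of cluster 3 lies at the left, as for Gdf10 at 5.73 RPKM with no other library under 33.7, except in genes such as Mfap4 in which cluster 6 was lower.

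RNA of blood cells was present in all 7 libraries and lowest or middling in cluster 3. The 15 neutrophil genes summed to RPKM 15668.7, 19238.9, 11619.4, 18771.8, 42434.8, 16318.5 and 31469.5 in clusters 1 to 7, with S100a9 the most abundant in cluster 3 at 4911.8, none at 0 counts, and 8 past 2-fold below the median. The summed macrophage and monocyte genes were lowest in cluster 3 as well, at 672 against 1107.0 to 4707.7, with Lyz2 the most abundant. The summed B cell genes were 117 against 174 to 329, led by Ighm. Erythroid genes summed to 7484.5 in cluster 3, between 1657.5 in cluster 6 and 105382 in cluster 5, led by Hba-a1, and endothelial genes to 36.3 against 8.33 to 68.4, led by Plvap. The genes Il1b, Osm, Cd14, Trem1, Il1r2, Clec4e and Ccl6, which myeloid cells express, were among the 44 below every other library. Of these, Osm, Cd14, Il1r2 and Clec4e fell short of 2-fold on the log2(RPKM + 1) scale under TMM and DESeq2 factors. The part of blood cell RNA in these results was not tested.

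Genes of proliferation were somewhat lower in cluster 3 without passing 2-fold. None of the 20 cell cycle genes did so, although 11 of them were lowest of the 7 (all genes, 11.6%), or 9 under DESeq2 factors, and the list median was -0.59. Mki67, a proliferation marker, was 6.15 in cluster 3 and 3.14 to 13.0 elsewhere, and Ccna2, cyclin A2, was 5.89 and 5.93 to 13.6. The study, from its single-cell data, gave cell cycle as the functional feature of cluster 3. The part of blood cell RNA in the levels of these genes was not tested. Immediate early genes (list median -0.17, 1 of 20 past 2-fold below), heat shock genes (0.15, 1 of 14 past 2-fold above) and ribosomal protein genes (-0.22, none of 20 past 2-fold) were closer to the median of -0.016 over all genes.

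**Figure D4:**
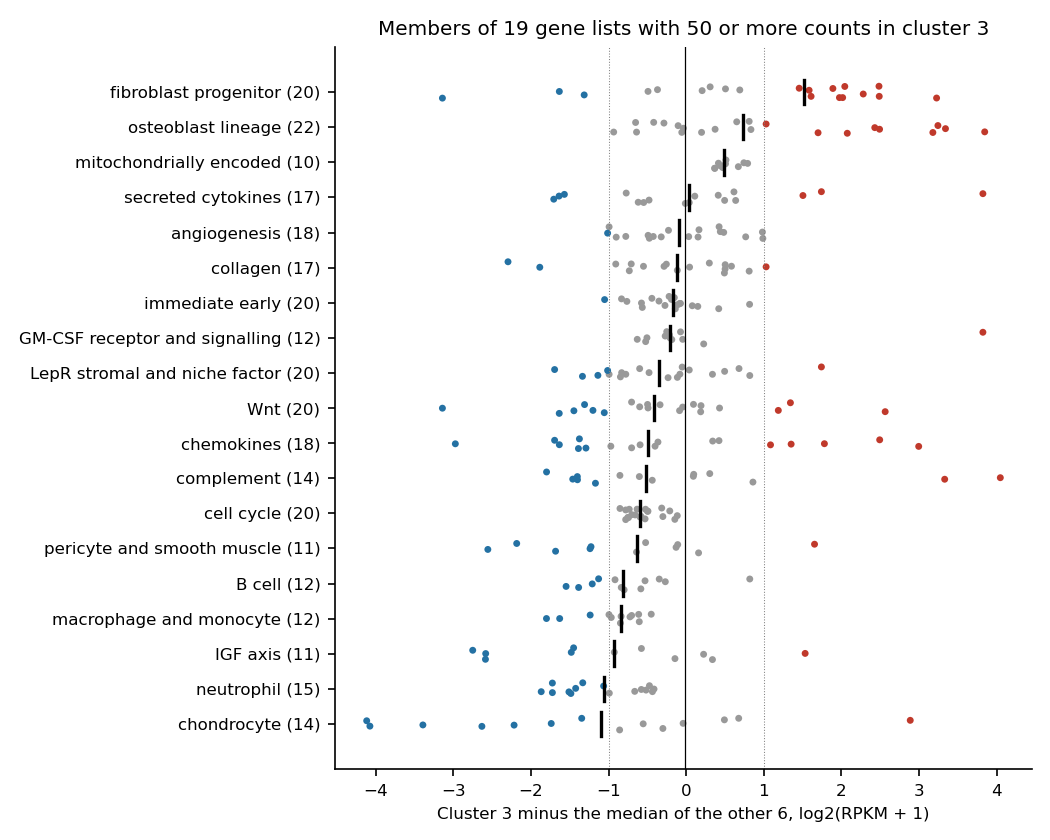
Differences of log2(RPKM + 1) between cluster 3 and the median of the other 6 libraries for 19 gene lists, with 1 point per gene with 50 or more counts, colour past the dotted 2-fold lines and a bar at the list median. The fibroblast progenitor list has the highest median of the 19 lists plotted (1.52) and the chondrocyte list the lowest (-1.10), while the cell cycle genes stay between the 2-fold lines.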

How the data were processed

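The labels name RNA of crushed marrow and an Illumina TruSeq kit, the study's methods RNA of sorted cells and poly(A) selection, and the titles set the groups. The authors deposited counts per gene with exon length, and no normalized values were used. Per the study's methods and the submitters' processing notes, reads were aligned with TopHat2 to mm9 and analysed in Partek 2.2, whereas the coordinates in the deposited tables are those of GRCm38. The treatment of shared reads and strand is not given in the sources used here. Only the 7 sorted libraries were used, the input was not analysed here, and 3 loci were left out.

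RPKM was computed from the deposited counts, the exon length and the remaining total (8364075 in cluster 5 to 33147014 in cluster 7, 26674531 in cluster 3). Differences are on the log2(RPKM + 1) scale, which understates those of low genes. The 95% intervals are exact binomial intervals of a ratio of counts. Genes were named as the 25 with the largest difference to the highest library, the 20 farthest below the median, the 10 farthest below the lowest, and the extremes of each list, leaving out predicted genes and receptor segments. Some of these genes are not reported here. Other genes named were chosen after their values were seen. The genes, the 40 lists and the rules were chosen with earlier results of these data known. Of 598 list genes 1 (Ahsp) was not found and 16 were matched by an older symbol or by position, and 12337 of the tested genes had a symbol. Promoters came from RefSeq tables. Alternatives were edgeR 4.0.16 TMM factors, DESeq2 1.42.0 size factors (scaling only), other loci left out, pseudocounts, count minimums, depths and comparison libraries. The scripts used R 4.3.3, Python 3.11.15, scipy 1.17.1 for intervals, pandas 2.3.3 with numpy 2.4.6 for tables and matplotlib 3.10.9 for plots, and were tested on simulated data.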

Additional observations from a re-analysis of the deposited data

How the results depend on the processing

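Most counts stayed within 1.5 times under the 16 alternatives. The 44 genes below the lowest library became 24 with the 3 loci kept, 71 with a pseudocount of 0.1, 74 without cluster 6 and 230 against clusters 1, 4 and 7 only. The 68 above the highest became 105 with no filter on counts, 125 without cluster 1 and 180 against clusters 1, 4 and 7 only, which compare with fewer libraries. With a pseudocount of 0.1 the genes 2-fold above and below the median numbered 605 and 598, and with a minimum of 200 counts 231 lay below. Of the 44, 34 were still 2-fold below the lowest library under TMM factors and 35 under DESeq2 factors. Of 58 named values past 2-fold all kept their direction and 56 stayed past 2-fold in every alternative, the exceptions being Mia1 and Col2a1. Those 58 do not cover every gene named above. Osm, Cd14, Il1r2, Clec4e, Peg3 and Col10a1 were not among them and fell short of 2-fold below the lowest library under TMM and DESeq2 factors. Rgcc was under 2-fold from the median in 10 of 16. No scaling moved the median of all genes by more than 0.07. No paired analysis was possible because each group had 1 library. Depth limits genes near 50 counts most, and cluster 5, with 8364075 counts after the 3 loci were left out, sets the least precise values.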

Other observations

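Some further genes at least 2-fold above every other library were picked after their values were seen, and no list was counted for them. Sbsn (suprabasin) was measured at RPKM 6.70, 4.81, 22.4, 4.51, 1.55, 5.34 and 5.65 in clusters 1 to 7. Dmkn (dermokine), 7622 bases from it on chromosome 7, was 9.65 in cluster 3 and 3.83 in cluster 7. Slurp1, a secreted Ly-6 family protein, was 28.2 in cluster 3, 12.1 in cluster 2 and at most 7.72 in the rest. Duox1, a hydrogen peroxide generating oxidase, and its maturation factor Duoxa1, 1942 bases away on chromosome 2, were 7.57 and 8.60 in cluster 3, and the next libraries were cluster 1 at 2.82 and cluster 7 at 3.30. The semaphorin genes Sema3e (19.2 against 4.68 in cluster 1) and Sema3a (4.77 against 1.75 in cluster 1), which encode guidance cues for axons and vessels, were also in this set. Sod3, the extracellular superoxide dismutase, was 322 in cluster 3 and 150 in cluster 7.

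Among skeletal muscle genes, Acta1, skeletal actin, was measured at RPKM 3.92, 77.7, 30.3, 1.01, 33.0, 44.0 and 1.98 in clusters 1 to 7. Of 10 such genes 5 had enough counts, 2 (Acta1 and Ckm) were past 2-fold above the median in cluster 3, Des was 3.90 against 3.59 to 9.20 elsewhere, and Pax7 was at 0 counts. The mast cell and basophil genes summed to 38.5 in cluster 3, the lowest of the 7, and the defining mast cell genes Mcpt4, Tpsb2 and Cma1 were at 0 counts. Schwann and nerve genes summed to 17.9, led by S100b, and to 19.4 in cluster 1, an order that turned under TMM and DESeq2 factors. Osteoclast genes summed to 394, between 248.8 and 689 elsewhere, led by Ctsk, with Calcr at 0 counts. Of the mitochondrial genome, the 10 protein-coding genes listed lay above the median library in cluster 3 by 0.37 to 0.79 on the log2 scale, without passing 2-fold, while mt-Atp8 and mt-Te, which were not in the list, did pass it.

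Genes under 50 counts in cluster 3 entered no comparison of single genes, although the list sums include such members. Of the genes under that minimum, 13 had an RPKM of at least 5 in every other library, of which 9 had a symbol, and those were small RNAs, pseudogenes or predicted genes, such as Mir23a, Snora31 and Mir199a-1. The 13 were at 4.22 to 14.7 RPKM in cluster 3, so they were not missing there.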
